A study of Mus musculus with 4 samples.

Results

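The genes described here encode the secreted Wnt ligands, their Frizzled receptors, the co-receptors Lrp5 and Lrp6, the R-spondins, and the secreted antagonists of the Sfrp, Dkk, Frzb and Wif1 types. They were chosen by symbol: all features that begin with Wnt, Fzd, Sfrp, Dkk or Rspo followed by a digit, plus Lrp5, Lrp6, Frzb and Wif1. This gave 47 of 32286 features, among them the non-coding Fzd10os and Rspo4os, each annotated as its own gene on the strand opposite to its namesake. The rule reads symbols alone, and it was set with earlier results of these data known. The cells are cardiac interstitial cells (the cells of the heart other than cardiomyocytes) of mice, in 2 samples taken 1 month after a stroke and 2 control samples of the same interval. All samples are of the strain Ccr2creERT2-Ai14, in which an inducible Cre recombinase driven by Ccr2 can switch on a tdTomato reporter. Control and stroke animals alike carry both alleles, and the labels give neither age nor whether hearts were pooled. Live nucleated cells were sorted after enzymatic digestion and a strainer step that holds back cardiomyocytes, and were sequenced with droplet 3′ single-cell RNA-seq.

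Wnt proteins carry a lipid that is added by Porcn, and leave the cell with the help of Wls. When a Wnt binds a Frizzled together with Lrp5 or Lrp6, β-catenin is spared from degradation and acts with Tcf and Lef factors on target genes such as Axin2. Other Wnts, Wnt5a among them, signal through Ror and Ryk receptors and the planar polarity machinery without β-catenin. R-spondins keep Frizzleds at the surface by drawing off the ligases Znrf3 and Rnf43, Sfrp proteins, Frzb and Wif1 bind Wnts outside the cell, and the Dickkopf proteins Dkk1, Dkk2 and Dkk4 bind Lrp5 and Lrp6. Dkk3 is a divergent member of that family and is grouped here with the antagonists by its name. In the heart the pathway is known for its part in valve formation, in the epicardium and in fibroblasts after injury.

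The deposited table joins 4 libraries with 44156588, 45834980, 31955157 and 37067428 UMIs (unique molecular identifiers, 1 per captured RNA molecule). After filtering, 37465 cells remained, with a median of 2568 to 3484 UMIs per cell by library, and 138 barcode sequences occurred in more than 1 library. No label ties a library to a sample, so the table counts as 1 sample, stroke and control were not compared, and no test is given. Values are the UMIs of a gene summed over the cells of a class and scaled by all UMIs of that class to the CPM scale (a share of the class's UMIs, with no term for gene length), with 95% exact Poisson intervals that cover counting error only. CPM compares a gene between classes. Fewer transcripts per cell and fewer expressing cells cannot be told apart in a summed level. Clusters were made without the 47 genes and named, as "X-like", from marker genes. They gave 19 classes of 37245 cells, from 17041 capillary-like cells to 115 Schwann-like cells. A cluster of 220 cells led by Erbb4 and Postn stayed unnamed and is called the Postn-led cluster. It came mostly from library 1, with 152, 25, 4 and 39 cells in libraries 1 to 4. Its 8 fibroblast markers were all detected and summed to 32284 CPM, against 41640 CPM in fibroblast-like cells, while 5 of 8 epicardial or mesothelial markers were at 0. Dcn alone made 16161 CPM of that sum, and Pdgfra was 134 CPM, against 315 to 359 CPM in the fibroblast-like clusters. Only 2 of the 8 were at least 2-fold over the other cells, with 20 CPM added to both. Smooth muscle markers scored nearly as high, with a mean log2 fold of 0.592 against 0.599.

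Of the 47 genes, 33 had at least 30 UMIs over the named classes and are called measured. The other 14 were Wnt1, Wnt3, Wnt3a, Wnt7a, Wnt7b, Wnt8a, Wnt8b, Wnt10a, Rspo2, Rspo4, Rspo4os, Dkk1, Dkk4 and Sfrp5, and Wnt3a had no UMI in any cell. Among the 33, 8 had their highest named class in epicardial- or mesothelial-like cells, where 6.55% of all 18086 measured features did. Schwann-like cells led 7, against 11.0% of all features. These were Sfrp1 (133 UMIs there), Wnt6 (23), Fzd3 (14), Fzd1 (12), Fzd8 (5), Fzd10os (4) and Fzd10 (1). Wnt6, Fzd1, Fzd8 and Fzd10 had another leading class in at least 1 of 9 recomputations with other settings. Fibroblast-like cells led 6 (Frzb, Sfrp2, Dkk3, Sfrp4, Wnt10b and Fzd9), against 4.83%. The endothelial-like classes together led 7, against 16.3%: lymphatic-like cells 3 (6.29%), endocardial-like cells 3 (2.49%), arterial-like cells 1 (3.89%) and capillary-like cells none (3.64%). The endocardial-like 3 were Dkk2, Wnt9b and Lrp5. At Leiden resolution 2, a finer clustering, a venous-like class of 303 cells led Wnt9b (16.7 CPM, 19 UMIs) and Lrp5 (58.9 CPM, 67 UMIs) instead. NK cell-like cells led Wnt16 and Wif1 (5.44%), smooth muscle-like cells Wnt5b (5.92%), cardiomyocyte-like cells Lrp6 (6.09%) and monocyte-like cells Wnt11 (2.21%). None was led by pericyte-like (8.59%), cycling (6.24%), neutrophil-like (5.92%), non-classical monocyte-like (5.6%), ILC2-like (4.33%), B cell-like (3.83%), T cell-like (3.72%) or macrophage-like cells (3.41%). The highest class lay at least 2-fold over the next for 13 genes, against 23.7% of all features. The highest class was the same in all 4 libraries for 12 genes, against 21.5%.

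**Figure D1:**
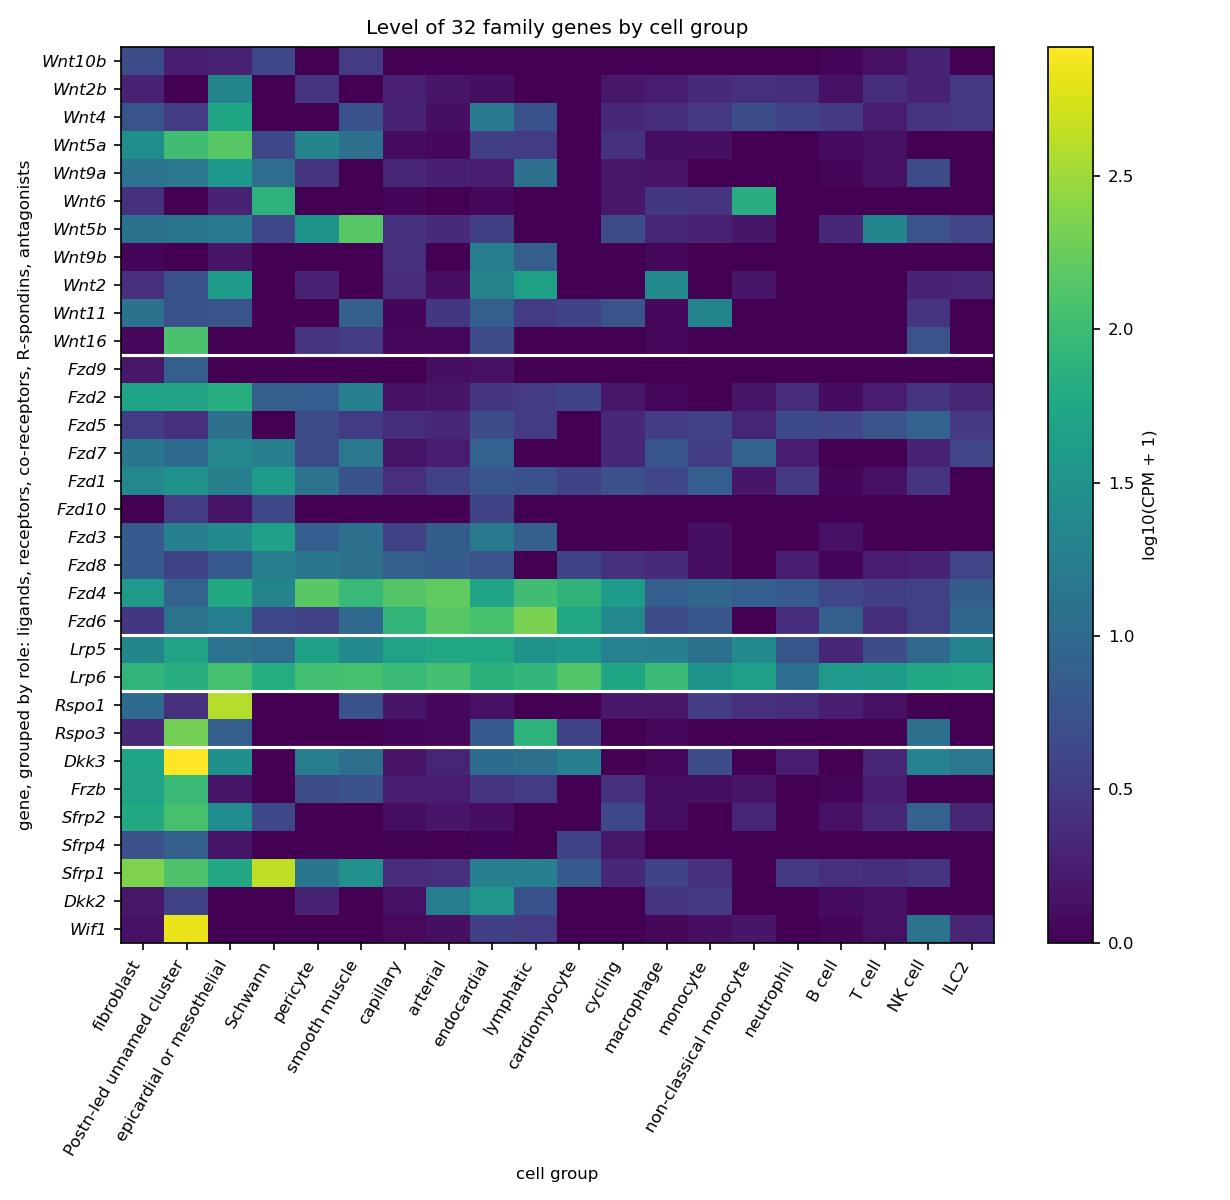
Level of 32 family genes (rows, by role) in 19 named classes and the Postn-led cluster (columns), as log10 of CPM plus 1, pooled over the libraries. Receptors and co-receptors span many classes, while many ligands, R-spondins and antagonists are bright in 1 or a few columns, such as Wif1 at 684 CPM in the Postn-led cluster.

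Promoters are shown for 2 pairs of genes that were high in the same cluster: Wif1 and Wnt16, which share the Postn-led cluster, and Dkk2 and Wnt9b, which share an endocardial-like cluster led by Cytl1. Each sequence is 300 bases from RefSeq on build GRCm38.p6, from 250 bases before to 50 bases after the annotated start, read 5′ to 3′ on the gene's strand. Capitals mark matches on either strand to the TCF/LEF core CTTTGAT, the TATA box TATAAA, the GC box GGGCGG or the T-box core AGGTGT.
Wif1 (chr10:121033754-121034053, plus strand): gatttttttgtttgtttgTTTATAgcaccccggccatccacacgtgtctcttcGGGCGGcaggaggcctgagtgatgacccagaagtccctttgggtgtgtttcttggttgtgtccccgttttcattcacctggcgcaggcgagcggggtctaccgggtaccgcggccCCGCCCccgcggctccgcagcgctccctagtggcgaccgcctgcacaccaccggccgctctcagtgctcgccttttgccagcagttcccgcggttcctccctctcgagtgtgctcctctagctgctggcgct
Wnt16 (chr6:22287977-22288276, plus strand): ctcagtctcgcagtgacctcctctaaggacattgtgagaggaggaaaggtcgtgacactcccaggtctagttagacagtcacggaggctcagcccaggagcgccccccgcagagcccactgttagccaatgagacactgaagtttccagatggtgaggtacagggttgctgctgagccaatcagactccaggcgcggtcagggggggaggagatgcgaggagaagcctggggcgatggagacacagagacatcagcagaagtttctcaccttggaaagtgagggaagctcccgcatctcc
Dkk2 (chr3:132085042-132085341, plus strand): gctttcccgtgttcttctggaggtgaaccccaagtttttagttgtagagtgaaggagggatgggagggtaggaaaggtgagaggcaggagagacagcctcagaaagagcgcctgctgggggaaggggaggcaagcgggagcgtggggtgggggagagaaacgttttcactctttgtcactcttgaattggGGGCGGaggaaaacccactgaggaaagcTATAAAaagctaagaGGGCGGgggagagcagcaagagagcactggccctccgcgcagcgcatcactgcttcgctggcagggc
Wnt9b (chr11:103749772-103750071, minus strand): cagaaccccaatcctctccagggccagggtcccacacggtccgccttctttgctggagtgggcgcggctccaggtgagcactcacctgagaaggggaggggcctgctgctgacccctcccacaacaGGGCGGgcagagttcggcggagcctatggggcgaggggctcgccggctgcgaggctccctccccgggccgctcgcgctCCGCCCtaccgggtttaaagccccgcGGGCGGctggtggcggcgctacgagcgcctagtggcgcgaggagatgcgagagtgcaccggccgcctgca
The table held 32 promoters of 29 of the 47 genes. A GC box lay in 75.0% of them and in 35.7% of all 32851 promoters of that length. Their median GC content was 67.8%, against 52.7% in all promoters. The TCF/LEF core lay in 6.25% against 3.73%, the TATA box in 15.6% against 13.6%, and the T-box core in 9.38% against 13.7%. None of the 4 sequences shown holds the TCF/LEF core, which says only that these letters are not in this window. Wif1 has a GC box 197 and 82 bases before its start, and Wnt16 holds none of the 4 motifs.

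The summed level of the Wnt ligands differed widely between cell classes. It was 318 CPM (95% interval 294 to 343) in epicardial- or mesothelial-like cells, 262 CPM in the Postn-led cluster and 170.1 CPM in smooth muscle-like cells. Schwann-like cells followed with 96.4 CPM, fibroblast-like cells with 76.1, non-classical monocyte-like cells with 71.8, lymphatic-like cells with 70.6, endocardial-like cells with 68.9 and pericyte-like cells with 58.3 CPM. Capillary-like cells had 8.03 CPM. Wnt5a, a ligand of the branch without β-catenin, made 44.8% of the epicardial sum. Its level there was 169, 126, 179 and 130.3 CPM in libraries 1 to 4, and 142 CPM when pooled. In fibroblast-like cells it was 25.9, 30.8, 34.6 and 23.7 CPM. The 4 epicardial values lay above the 4 fibroblast values without overlap, and the pooled ratio was 5.17 (95% interval 4.54 to 5.86). Epicardial-like cells also held Wnt4 at 30.7, 73.7, 29.8 and 52.99 CPM, and Wnt9a at 44.2, 37.6, 35.7 and 24.3 CPM. Wnt2b was 11.5, 39.03, 5.96 and 11.5 CPM there and at most 2.08 CPM in any other named class. Its highest value came from library 2, and without that library the epicardial level fell from 20.2 to 10.8 CPM. The receptor Ror1, which binds Wnt5a, was 593 CPM in the same cells, and the Wnt carrier Wls was 358 CPM, each the highest of the named classes.

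Wnt5b was led by smooth muscle-like cells. Its level was 167, 22.96, 225 and 86.1 CPM in libraries 1 to 4, and 144 CPM pooled (95% interval 111 to 183), from 122 cells. Pericyte-like cells followed with 32.1, 18.8, 29.2 and 41.2 CPM. The 2 ranges overlap through library 2, in which only 13 smooth muscle-like cells were found. Pooled, the ratio was 4.56 (95% interval 2.97 to 7.12). T cell-like cells held 16.4, 20.2, 25.8 and 19.1 CPM of Wnt5b, from 48 of 614 cells. B cell-like cells held 1.15 CPM. T cells also had the highest level of Lef1, at 839 CPM, and of Tcf7, at 364 CPM, the DNA-binding factors of the pathway.

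Wnt6 had its highest levels in 2 unrelated classes. In Schwann-like cells it was 111, 20.2, 61.1 and 41 CPM in libraries 1 to 4, from 23 UMIs in all. In non-classical monocyte-like cells it was 52.1, 103, 18.2 and 12.5 CPM, from 131 UMIs. The 2 sets of values overlap and their order is not resolved: the pooled ratio was 1.17 (95% interval 0.72 to 1.83). A UMI of Wnt6 was found in 21.6% of non-classical monocyte-like cells (88 of 407, median 4905 UMIs per cell). It was found in 0 of 1524 B cell-like cells (median 3999 UMIs per cell), and the exact binomial upper bound of 0.242% limits cells with a UMI, not cells that express the gene. Without library 1 the Schwann-like level dropped to 36.0 CPM and non-classical monocyte-like cells led. Library 2 gave 107 of the 131 UMIs of non-classical monocyte-like cells, and without it their level dropped from 65.3 to 24.9 CPM. These monocytes also led Tcf7l2, a nuclear factor of the pathway, at 421 CPM.

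Wnt2 and Wnt11 were also found in small groups of myeloid cells. Among the named classes, Wnt2 was highest in lymphatic-like cells, at 16.01, 32.2, 20.6 and 94.5 CPM, from 20 UMIs. Epicardial-like cells followed at 40.3, 36.1, 35.7 and 42.97 CPM. The 2 sets overlap, and the order is not resolved, at a pooled ratio of 1.12 (95% interval 0.65 to 1.84). Lymphatic-like cells led in 6 of 9 recomputations, and without library 4 the lymphatic level dropped from 44.1 to 22.2 CPM. Within the endocardial-like class, the Cytl1-led cluster had 59.3 CPM from 121 UMIs. In macrophage-like cells Wnt2 came nearly all from 1 cluster of 114 cells led by Saa3, with 160 UMIs and 121 CPM. The larger macrophage-like cluster, led by C1qa, had 2 UMIs and 0.35 CPM. Of the 34 macrophage-like cells with a Wnt2 UMI, 94.1% also had Alox15, against 6.91% of the other macrophage-like cells, and all had C1qa, a macrophage gene. Alox15 is among the leading genes of the Saa3-led cluster, so its contrast mostly restates cluster membership. Of 8 epicardial or mesothelial markers, 7 had no UMI in the 34 cells, and Msln had one in 2.94% of them, against 0.087% of the others. Their median depth was 11630 UMIs, against 5376 in the others and 11573 in the Saa3-led cluster as a whole. The part of depth was not tested. The Saa3-led cluster held 0, 78, 2 and 34 cells in libraries 1 to 4, so its Wnt2 rests on libraries 2 and 4. Without library 2 the Wnt2 level of all macrophage-like cells dropped from 23.1 to 5.97 CPM. Wnt11 was 15.8, 29.1, 10.9 and 29.5 CPM in monocyte-like cells, from 32 cells. At the finer clustering resolution the leading class of Wnt11 was a cluster of 333 cells named dendritic-like, with 65 UMIs and 27.1 CPM, so the name of the leading class depends on the resolution. Of 7 dendritic markers, 5 were found in a larger share of the 32 cells than of the other monocyte-like cells, with Cd209a in 59.4% against 15.5% and Ccr7 in 18.8% against 4.06%. The other two, Xcr1 (0% against 9.79%) and Clec9a (6.25% against 12.6%), were found in a smaller share. Of 6 monocyte markers, 5 were found in a smaller share, such as Ly6c2 in 6.25% against 36.8%, and Ccr2 in a larger one. Median depths were 10634.5 and 7270 UMIs per cell, and the part of depth was not tested.

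**Figure D2:**
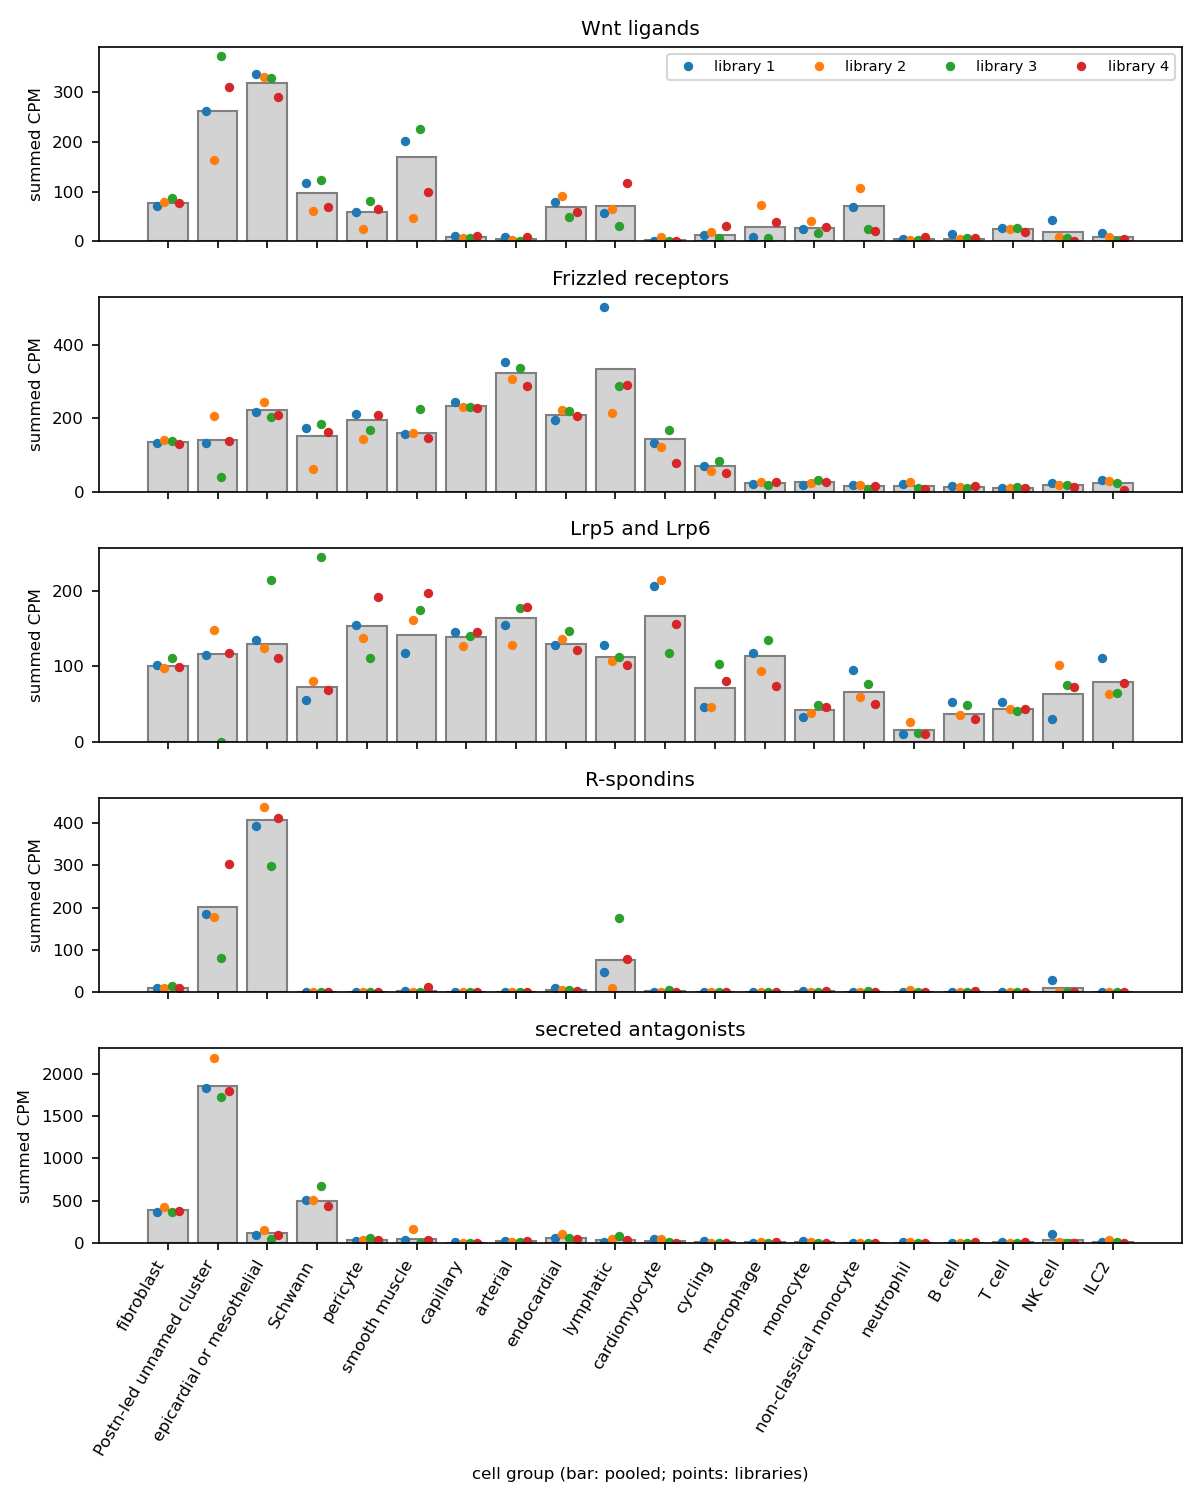
Summed CPM of Wnt ligands, Frizzled receptors, Lrp5 with Lrp6, R-spondins and secreted antagonists (panels) in 19 named classes and the Postn-led cluster. Bars are pooled over the libraries and points are the 4 libraries. The antagonist sum of the Postn-led cluster, 1861 CPM, stands above every named class, and receptors are spread over vascular and mesenchymal classes.

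The Frizzled receptors summed highest in lymphatic- and arterial-like endothelium. Their summed level was 333 CPM in lymphatic-like, 323 CPM in arterial-like, 232 CPM in capillary-like and 208 CPM in endocardial-like cells. It was 135 CPM in fibroblast-like cells and 10.5 to 25.5 CPM in B, T, NK, ILC2, neutrophil and monocyte or macrophage classes. Fzd4, a receptor for Norrin as well as for Wnts, was 179.9, 174, 160.4 and 138 CPM in arterial-like cells in libraries 1 to 4. Pericyte-like cells had 162, 125, 105 and 156 CPM and capillary-like cells 149.6, 136, 129.8 and 138 CPM. These 3 classes overlap between libraries. Endocardial-like cells were lower, at 50.2, 59.01, 51.6 and 43.9 CPM, below every arterial, pericyte and capillary value. Tspan12, which acts with Fzd4 in Norrin signalling, was highest in capillary-like cells at 129 CPM. Fzd6 was 320.3, 139, 216 and 167 CPM in lymphatic-like cells and 156, 113, 164 and 131 CPM in arterial-like cells, which overlap. Capillary-like cells had 79.8, 80.99, 88.8 and 76.2 CPM of Fzd6, below all of the arterial values.

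Fzd4 was also found in epicardial-like cells, at 57.6, 53.5, 53.6 and 67.3 CPM, and in fibroblast-like cells, at 37.1, 38.3, 32.5 and 31.9 CPM. The epicardial values overlap the endocardial ones, and the fibroblast values lie below both. Fzd2 was 71.1, 80.9, 35.7 and 54.4 CPM in epicardial- or mesothelial-like cells and 44.7, 46.7, 52.7 and 54.1 CPM in fibroblast-like cells, and the 2 sets overlap. Fzd7 was 26.9, 17.3, 17.9 and 22.9 CPM in epicardial-like cells, all above the 12.2 to 14.2 CPM of fibroblast-like cells. Its next class was Schwann-like cells at 16.6 CPM, and the order is not resolved, at a ratio of 1.30 (95% interval 0.52 to 4.21). Without library 1 Schwann-like cells led Fzd7, at 21.6 CPM from 3 UMIs. Fzd1 and Fzd3 were highest in Schwann-like cells, at 39.9 and 46.5 CPM, from 12 and 14 UMIs. Without library 1 the Fzd1 level of Schwann-like cells dropped to 14.4 CPM and fibroblast-like cells, at 21.8 CPM with all libraries, led instead. Fzd5, Fzd8, Fzd9 and Fzd10 stayed under 20 CPM in every named class. The co-receptors were spread over nearly all classes. Lrp5 was 55.4 CPM in endocardial-like cells and 53.3 CPM in arterial-like cells, a ratio of 1.04 (95% interval 0.91 to 1.19). By library these were 56.6, 64.3, 69.9 and 45.1 CPM against 50.1, 46.5, 58.4 and 55.5 CPM. Lrp6 had its highest value, 132 CPM, in 134 cardiomyocyte-like cells, where it was 147, 177, 91.05 and 156 CPM by library. Epicardial-like cells followed at 127, 114, 173 and 102 CPM. The cardiomyocyte-like class also carried capillary markers at a sum of 17285 CPM, and its size was 23, 34 and 342 cells in other clusterings. It stayed the leading class for Lrp6 in 2 of 9 recomputations. With 23 cells (stricter filter) and 34 cells (doublets kept) it fell under the 50-cell minimum of a class and could not lead.

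R-spondins had 3 separate sources. Rspo1 was 388, 415, 279.95 and 407 CPM in epicardial- or mesothelial-like cells, where 249 of 306 cells had a UMI, and 8.18, 9.23, 13.2 and 10.9 CPM in fibroblast-like cells. The epicardial values exceeded the fibroblast values in every library, and the pooled ratio was 41.3 (95% interval 36.9 to 46.2). Rspo3 was led by lymphatic-like cells among the named classes, at 48.04, 10.7, 175 and 79.96 CPM. Without library 3 the lymphatic level dropped from 77.3 to 50.6 CPM. In the Postn-led cluster Rspo3 was 183, 177, 82.5 and 298 CPM, and the pooled ratio to lymphatic-like cells was 2.60 (95% interval 1.82 to 3.81), with overlap between the 2 sets of libraries. Of the receptors and ligases of R-spondins, Lgr4 was highest in Schwann-like cells at 156 CPM. Znrf3 was 219 CPM in NK cell-like, 187 CPM in T cell-like and 145 CPM in ILC2-like cells.

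The Postn-led cluster carried the highest summed antagonist level. Its sum was 1861 CPM, with 1831, 2192, 1733 and 1804 CPM in libraries 1 to 4, against 387 CPM in fibroblast-like and 499 CPM in Schwann-like cells. Dkk3, which is grouped with the antagonists by its name, made 44.7% of that sum. Sfrp1 (442 CPM in Schwann-like cells) and Dkk2 (32.0 CPM in endocardial-like cells) were lower, at 125 and 2.95 CPM, in the Postn-led cluster. Of the 33 measured genes, 9 were higher there than in every named class, where 5.0% of all features were. At least 2-fold higher were 5 (Wif1, Wnt16, Dkk3, Rspo3 and Fzd9), where 0.957% of all features were. Fzd9 rests on 9 UMIs and 6.64 CPM there, against at most 0.52 CPM in a named class. Of the 9, Sfrp4 and Fzd10os were not resolved from their highest named class. Their ratios were 1.55 (95% interval 0.70 to 3.00) and 1.22 (0.41 to 4.88). Wif1, which binds Wnts directly, was 689.9, 827, 413 and 608 CPM in this cluster, with 927 UMIs in 128 of 220 cells, 58.2% (95% exact binomial interval 51.4 to 64.8). Without library 1 the cluster's pooled level was 671 CPM. In fibroblast-like cells 0.196% had a UMI, in B cell-like cells 0.0656%, and the median depths were 5943.5, 6426 and 3999 UMIs. The richest cell held 97 of the 927 UMIs. Wif1 lies at chr10:121033960-121100650 on the plus strand of build mm10. Dkk3, a Dickkopf-family protein, was 831, 930.01, 536 and 809.6 CPM there, and 50.02, 56.1, 17.9 and 48.2 CPM in fibroblast-like cells, with a pooled ratio of 17.2 (95% interval 16.02 to 18.4). Every library of the Postn-led cluster lay above every fibroblast value for Dkk3 and Wif1.

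Wnt16 was 120.2, 88.6, 0 and 147 CPM in the Postn-led cluster. The value of 0 comes from library 3, which gave 4 of its cells. Over all libraries the level was 119.6 CPM (95% interval 102 to 139), from 66 cells. Every named class was at or under 4.62 CPM when pooled. Within the endocardial-like class, however, the Cytl1-led cluster had 19.1 CPM of Wnt16, from 39 UMIs. Wif1, Rspo3 and Dkk3 were 14.2, 14.2 and 41.7 CPM in that Cytl1-led cluster. Frzb was 87.8, 88.6, 124 and 113 CPM in the Postn-led cluster and 46.9, 48.2, 46.5 and 44.2 CPM in fibroblast-like cells, without overlap. The pooled ratio for Frzb was 1.995 (95% interval 1.65 to 2.39). Sfrp2 was 93.03, 251, 495 and 96.5 CPM against 54.8, 81.8, 40.5 and 44.5 CPM in fibroblast-like cells, and 40 of its 158 UMIs came from 1 cell. Sfrp1 went the other way: it was 118, 88.6, 165 and 172 CPM in the Postn-led cluster and 214, 230.3, 258 and 239 CPM in fibroblast-like cells, a ratio of 0.55 (95% interval 0.47 to 0.64). Within the cluster, 60.7% of cells with a Dkk3 UMI also had Wif1, against 31.6% of the other 19 cells, with medians of 6134 and 4278 UMIs per cell. The part of depth in this difference was not tested. Cells with a Wnt16 UMI had Sfrp2 in 6.06% (4 of 66 cells) and the other cells in 22.1%, at medians of 6945 and 5595 UMIs per cell. Sfrp2 was found in only 38 cells of the cluster, and the part of depth was again not tested.

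**Figure D3:**
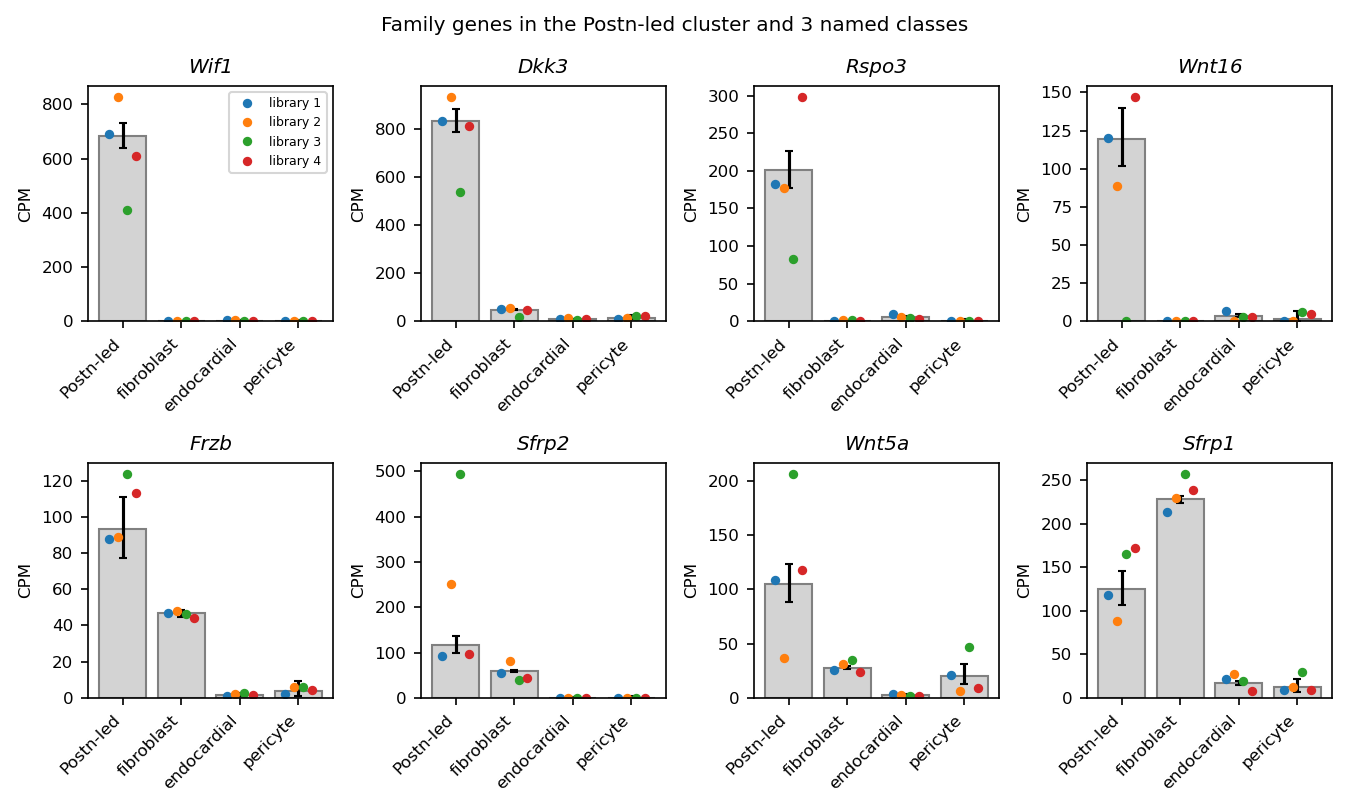
CPM of 8 family genes (panels) in the Postn-led cluster, fibroblast-like, endocardial-like and pericyte-like cells. Bars are pooled levels with 95% Poisson intervals, and points are the 4 libraries. Wif1, Dkk3, Rspo3 and Wnt16 are high in the Postn-led cluster and near 0 or low elsewhere, while Sfrp1 is higher in fibroblast-like cells.

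Some targets of the pathway were highest in the Postn-led cluster and most were not. Of 13 measured target genes, 4 were higher there than in every named class, against 5.0% of all features. Axin2, a feedback inhibitor, was 50.9 CPM there and 4.4 CPM in fibroblast-like cells. Apcdd1, a membrane antagonist, was 76.0 against 19.5 CPM. Lgr5, an R-spondin receptor, was 22.9 against 0.4 CPM, and Lef1 was 48.0 against 0.4 CPM. Lef1 is not one of the 4, since T cell-like cells were higher, as given above. The other of the 4 was Sp5, a transcription factor, at 2.95 CPM from 4 UMIs. Among the named classes, Axin2 was highest in ILC2-like, Lgr5 in pericyte-like, and Apcdd1 and Sp5 in endocardial-like cells. The gaps to fibroblast-like cells are therefore not the margins behind the count of 4. No intervals are given for these genes, and most cells of the cluster came from library 1. Ccnd1 and Myc, which many pathways control, were not among the 4, at 103 and 5.9 CPM in the Postn-led cluster, against 136.02 and 10.02 CPM in fibroblast-like cells. Nkd1, Nkd2, Znrf3, Rnf43, Tcf7 and Ccn4 were 34.0, 17.7, 47.2, 13.3, 5.2 and 2.2 CPM in the Postn-led cluster, and each was higher in at least 1 named class, such as Nkd1 at 35.6 CPM in epicardial-like and Nkd2 at 146 CPM in Schwann-like cells.

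The remaining antagonists had other leading classes. Sfrp1 was highest in Schwann-like cells, at 445, 424, 672 and 396 CPM, above the fibroblast values given above in every library, and the pooled ratio was 1.94 (95% interval 1.62 to 2.30). Schwann-like cells also held all 16 UMIs of Sfrp5 and 286 CPM of Sostdc1, an antagonist outside the family that was at most 0.1 CPM in every other class. Sost, another outside antagonist, was 46.4 CPM in smooth muscle-like and 43.6 CPM in endocardial-like cells. Dkk2 was highest in endocardial-like cells, at 22.99, 56.8, 32.2 and 26.8 CPM, followed by arterial-like cells at 12.4, 14.1, 11.8 and 24.98 CPM. The 2 sets overlap, and the pooled ratio was 1.97 (95% interval 1.58 to 2.48).

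The endocardial level of Dkk2 came nearly all from 1 of the 2 endocardial-like clusters. One, of 2512 cells, was led by Npr3, a marker of the endocardium that lines the chambers, and the other, of 420 cells, by Cytl1. Of 23 family genes with at least 30 UMIs over both, 12 were at least 2-fold higher in the Cytl1-led cluster, where 6.45% of all features were. Fzd5 and Wnt11 were at least 2-fold lower, where 5.91% of all features were. Dkk2 was 121, 205, 267 and 173 CPM in the Cytl1-led and 5.61, 7.01, 0.629 and 1.68 CPM in the Npr3-led cluster, a pooled ratio of 50.6 (95% interval 36.0 to 73.1). Wnt9b was 93.4, 106, 46.9 and 86.7 CPM against 4.62, 1.17, 1.26 and 1.92 CPM. Wnt4 was 95.3, 101, 75.03 and 64.3 CPM against 1.65, 0.584, 3.78 and 2.88 CPM. All 4 libraries of the Cytl1-led cluster lay above all 4 of the Npr3-led cluster for these 3 genes and for Sfrp1, Dkk3, Wnt2, Wnt16, Fzd10 and Fzd10os. The Cytl1-led values of Wnt16 ranged widely, at 41.1, 1.74, 18.8 and 16.8 CPM. The rest of the 12 were Rspo3 and Wif1, higher there in 2 of 4 libraries, and Wnt5a, higher in 3. Wnt5a had 12 UMIs in the Cytl1-led and 19 in the Npr3-led cluster, at 5.88 and 1.81 CPM. Wif1 had 29 and 3 UMIs, and 15 of the 32 UMIs in endocardial-like cells came from 1 cell. Some of the 12, such as Wif1 and Fzd10, passed the floor of 30 UMIs mainly through the Cytl1-led cluster. Fibroblast markers were also higher in the Cytl1-led cluster, for 7 of the 8 listed: they summed to 3128 CPM, with 2424 to 3285 CPM by library, against 1919 CPM, with 1620.03 to 2302 CPM, in the Npr3-led cluster and 41640 CPM in fibroblast-like cells. Pdgfra was 136 against 3.43 CPM and Dcn 2194 against 1304 CPM, while Col1a1 was 9.81 against 6.10 CPM, and none of the 8 was at 0 in either cluster. Their part in the family differences was not tested. The 8 endothelial markers summed to 5609 and 6349 CPM.

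Most receptors did not show this pattern. Fzd6 was 126 CPM in the Cytl1-led and 117 CPM in the Npr3-led cluster, a ratio of 1.08 (95% interval 0.94 to 1.24). Fzd4 had a ratio of 0.79 (95% interval 0.62 to 1.002), Lrp6 of 0.96 (0.80 to 1.15) and Fzd3 of 1.002 (0.65 to 1.499). Lrp5 was 44.1 against 57.6 CPM, and lower in the Cytl1-led cluster in all 4 libraries. Fzd10 and, in the other direction, Fzd5 were the exceptions. Fzd10 had 33 of its UMIs in the Cytl1-led cluster and 4 in the Npr3-led cluster. Among cells of the Cytl1-led cluster, 52.2% of those with a Dkk2 UMI had Wnt9b, against 7.41% of the others, at medians of 5723 and 4284 UMIs per cell, and the part of depth was not tested. For Dkk2 and Fzd10 the shares were 5.80% and 5.70%. In the capillary-like clusters Wnt9b and Wnt2 were nearly limited to the one led by Kirrel3, at 7.45 and 6.86 CPM, with at most 0.88 and 0.32 CPM in the other 4.

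**Figure D4:**
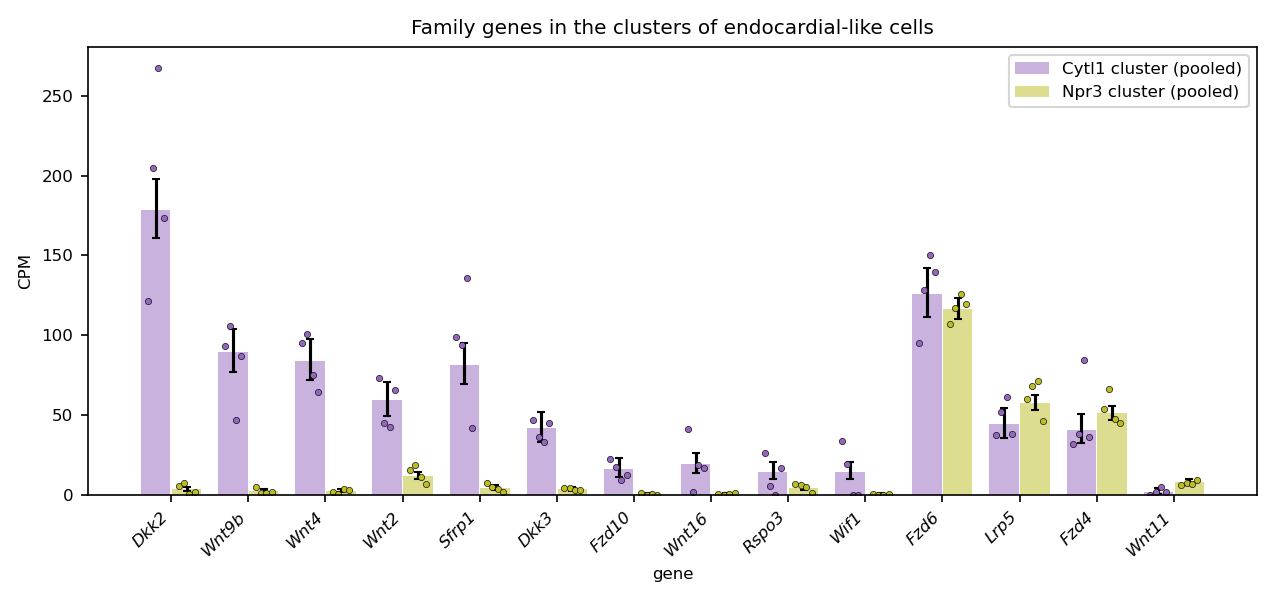
CPM of 14 family genes in the Cytl1-led (420 cells) and Npr3-led (2512 cells) clusters of endocardial-like cells. Bars are pooled levels with 95% Poisson intervals and points are the 4 libraries. Dkk2, Wnt9b and Wnt4 stand at 178, 89.7 and 83.8 CPM in the Cytl1-led cluster and under 4 CPM in the Npr3-led cluster, while Fzd6 stands at 126 and 117 CPM.

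Fibroblast-like cells fell into 3 clusters, led by Cxcl14 (4303 cells), by Cd248 and Pi16 (2056 cells) and by Mfap4 and Osr1 (1794 cells). Of 26 family genes with enough UMIs, 17 differed at least 2-fold between the highest and the lowest cluster, where 18.4% of all features did. The Mfap4-led cluster was highest for 14 of them, where 32.8% of all features were. The Pi16-led cluster was highest for 9 (34.0% of all features) and the Cxcl14-led cluster for 3 (33.2%). Sfrp2 was 134, 226, 127 and 161 CPM in the Mfap4-led, 39.2, 41.9, 28 and 22.9 CPM in the Cxcl14-led and 14.7, 27.6, 26.4 and 14.1 CPM in the Pi16-led cluster. Dkk3 was 147, 162, 75.2 and 161 CPM in the Mfap4-led cluster and 9.10 to 27.3 CPM in the others. The Mfap4-led values exceeded all others for both genes. Wnt10b was 10.02, 12.3, 11.7 and 10.8 CPM in the Pi16-led cluster and at most 2.22 CPM in any library of the others. Frzb was highest in the Cxcl14-led cluster, at 63.7, 72.97, 59.5 and 59.2 CPM, above the other clusters' 22.2 to 40.9 CPM. Sfrp1 was even across the 3, at 222, 243 and 220 CPM.

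A finer division of fibroblast-like cells set the secreted members further apart. Sfrp2 reached 419 CPM in a sub-cluster of 444 cells led by Igfbp3 and Fgl2, with 386, 486, 67.3 and 429 CPM by library. Wnt5a reached 201 CPM in a Pi16-type sub-cluster of 154 cells led by Opcml and Igfbp5, and Sfrp4 57 CPM in the same cells. Its Wnt5a was 107, 210.3, 639 and 226 CPM by library, where library 3 gave 11 cells. Wnt10b was 19.1 CPM in the main Pi16-type sub-cluster and 18.3 CPM in the one led by Opcml. Wif1 stayed at or under 0.97 CPM in every sub-cluster, including the one led by Postn and Cilp, where Dkk3 was 154 CPM. Fzd2, in contrast, varied from 34.4 to 64.3 CPM over the sub-clusters with at least 20 UMIs of it. A sub-cluster of 229 cells carried endothelial genes such as Flt1 and Kdr, and its Fzd6, at 18.8 CPM, was the highest of all.

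**Figure D5:**
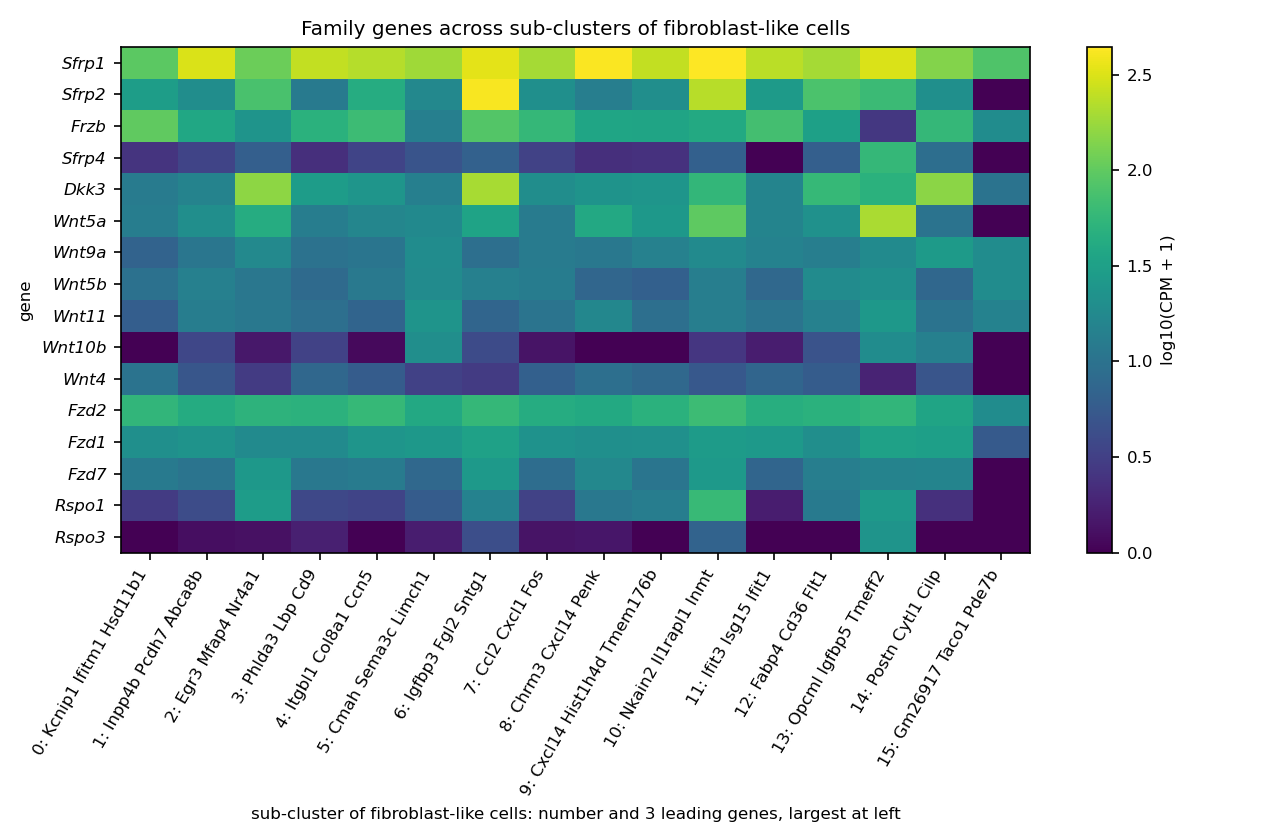
Level of 16 family genes (rows) in sub-clusters of fibroblast-like cells with at least 50 cells (columns, by size), as log10 of CPM plus 1. Sfrp1, Fzd1 and Fzd2 are seen across nearly all columns, while Sfrp2, Dkk3, Wnt5a, Sfrp4 and Wnt10b are bright in 1 to a few.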

How the data were processed

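Per the labels' protocols, cells were processed with the 10x 3′ v3.1 chemistry. The authors deposited 1 table of UMI counts (raw counts per gene and cell barcode, not normalized) and the submitters' processing notes name Cell Ranger 7.1.0 and mm10. No label or header records how libraries were joined. Barcodes with at least 500 UMIs, 250 genes and at most 15% mitochondrial UMIs were kept, without 821 that failed and 1445 doublets (Scrublet in scanpy 1.11.5). In library 3 the automatic threshold of 0.522 marked 1 barcode, and the median of the others, 0.188, was used. Clusters came from 2000 variable genes without family, pathway, reporter, sex-linked, mitochondrial, ribosomal or haemoglobin genes, 30 principal components, 15 neighbours and Leiden resolution 1 (leidenalg 0.10.2). They were named from 24 marker lists, which needed at least 3 markers at 2-fold. Haemoglobin genes were left out, and the naming rule was adjusted, after the first clusters had been seen. The members and lists were chosen with earlier results of these data known. Genes are given with values in each library where they had at least 30 UMIs and 20 CPM in their highest class. Wif1, Wnt16, Wnt11 and Wnt10b fall outside that rule and were chosen after their values were seen. Ratios have exact conditional binomial intervals. The computation was tested on simulated counts. The edgeR test of stroke against control, planned for the case that barcodes could be tied to samples, was not run.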

Additional observations from a re-analysis of the deposited data

How the results depend on the processing

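Counts of measured members, of members led by fibroblast-like or endothelial-like classes and of members with a 2-fold lead were recomputed under each alternative. Thinning each cell to 1000 UMIs, which left out 2304 shallower cells, gave 3 members highest in fibroblast-like cells in place of 6. A floor of 1 UMI gave 11 members highest in an endothelial-like class in place of 7, and 26 with a 2-fold lead in place of 13. Counting the Postn-led cluster as a class, an alternative chosen after seeing the data, left 1 member highest in fibroblast-like cells, and again 1 with library 1 left out of that cluster. All other counts stayed within 1.5 times the main count. Of 282 recomputed levels of named members, 258 stayed within their counting interval and 24 did not. Some of the 282 could not move, since the setting left the member's own highest class unchanged. These were 22 with the Postn-led cluster counted as a class and 22 with library 1 left out of that cluster. Likewise fixed were 21 with cardiomyocyte-like cells left out and 21 with cardiomyocyte-like and cycling cells left out. Besides the changes named above, Wnt2 in lymphatic-like cells was 21.6 CPM when thinned. The highest class stayed the same in all 9 recomputations for 17 of 33 members. In the Postn-led cluster, which held 216 to 234 cells over the clusterings, Wif1 was 634 to 700.5 CPM, also with each library left out. No paired analysis was possible because no barcode is tied to a sample. Depth limits the small classes most: in Schwann-like cells a count of 0 has a 95% Poisson upper bound of 12.3 CPM.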

Other observations

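Among NK cell-like cells, Wif1, Dkk3 and Rspo3 came nearly all from 1 cell each, with 12 of 13, 18 of 20 and 11 of 12 UMIs in the richest cell. These are 3 of the 5 genes at least 2-fold higher in the Postn-led cluster, and the NK cell-like lead of Wif1 among the named classes rests on that value. Fzd10os had 51 UMIs in the Cytl1-led endocardial-like cluster and 7 in the Npr3-led cluster, and its neighbour Fzd10 on the opposite strand had 33 and 4. In the Postn-led cluster Fzd10os was 16.2 CPM and Fzd10 2.21 CPM.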
